A study of Homo sapiens with 6 samples.

Results

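The hexosamine pathway and the enzymes that add, remove and recycle its product were examined in MV4-11, a widely used human cell line derived from an acute myeloid leukaemia. The genes were listed by name, with no threshold on their values: GFPT1, GFPT2, GNPNAT1, PGM3, UAP1, OGT, OGA and NAGK, 8 in all. A row of the count table was found for 7 of them among its 23227 genes, and GFPT2, the other isozyme of the first step, had no row in the table used here and was not analysed. RNA sequencing libraries were made from 3 samples labelled as carrying a knockdown of ENO1 and from 3 samples labelled as untreated. ENO1 encodes alpha-enolase, a glycolytic enzyme. The labels give the genotype of all 6 samples as WT. The knockdown columns carry the name of 1 short hairpin, sh2, so the knockdown rests on 1 hairpin sequence. The untreated samples carry the letters NC in their names, and whether they received a control hairpin is not stated. Whether separate cultures lie behind the 3 libraries of a group is not stated, so p-values reflect the spread between these libraries only, and that spread may be technical.

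The hexosamine pathway branches from glycolysis at fructose 6-phosphate and builds UDP-GlcNAc, the activated sugar used for N-glycans, other glycans and O-GlcNAc. GFPT1 and GFPT2 transfer the amide nitrogen of glutamine to fructose 6-phosphate and are the rate-limiting step. GNPNAT1 acetylates the product, PGM3 moves its phosphate and UAP1 joins it to UTP. OGT places single GlcNAc residues on serines and threonines of nuclear and cytosolic proteins, OGA removes them, and NAGK phosphorylates free GlcNAc so that it can enter the pathway again. Because the pathway draws on sugar, glutamine, acetyl-CoA and UTP, it is commonly described as a nutrient-sensing branch.

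The libraries held from 20044602 to 26373960 counts. Levels are given as CPM, read counts scaled to a common library size, with library sizes adjusted by TMM, the trimmed mean of M values, which corrects for differences in composition. ENO1 was at 103, 101 and 102 CPM in the knockdown libraries, against 3240, 3262 and 3285 CPM in the control libraries. Mitochondrially encoded genes took 9.27 to 9.69% of the counts in the knockdown libraries and 6.69 to 6.88% in the control libraries. Within the groups, knockdown replicate 3 differed from its fellows at 3.99 and 4.16 and control replicate 2 at 2.84 and 3.13 in chi-square over degrees of freedom, where the remaining knockdown and control pairs had 2.28 and 2.10. These 2 libraries are said to stand apart, and results that change without them are given with that value. All 8 markers of myeloid leukaemia lines were tested. Where 29.4% of all genes tested were higher and 30.5% lower, 3 of these markers were higher and 4 lower. Among them FLT3, a receptor tyrosine kinase, averaged 1018 ± 29.5 CPM in the knockdown cells and 808 ± 10.2 CPM in the control cells (SD, n = 3 each). LYZ, or lysozyme, averaged 51.4 ± 1.01 CPM in the knockdown cells and 274 ± 3.43 CPM in the control cells, and MPO, or myeloperoxidase, 3.66 ± 0.278 CPM in the knockdown cells and 22.4 ± 1.19 CPM in the control cells (SD, n = 3 each). Their summed level, to which FLT3 gave the most, was 1757 to 1775 CPM in the knockdown libraries and 1892 to 1912 CPM in the control libraries. The part of these differences in the results was not tested. The erythroid, T cell, epithelial and fibroblast markers summed to at most 0.197, 0.279, 0.0908 and 0.541 CPM in the knockdown libraries and 0.578, 0, 0 and 0.369 CPM in the control libraries. The B cell markers summed to 6.17 to 7.02 CPM in the knockdown libraries and 3.45 to 4.67 CPM in the control libraries, and their part in the results was not tested.

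With ENO1 knocked down, the genes of this pathway moved in different directions, and those other than UAP1 moved by little. UAP1, the last step, fell by 34.0%, and GNPNAT1, the second step, fell by 17.3%. PGM3, OGA and NAGK rose by 14.2, 9.11 and 18.9%. GFPT1 and OGT differed by 0.0643 and 0.191% and did not pass the test. At a threshold of 0.05 on the adjusted p of edgeR's quasi-likelihood test, 3 of the 7 genes passed as higher in knockdown cells and 2 as lower, and in the same 5 genes the libraries of the groups did not overlap. Of all 14635 genes tested, 59.9% passed in either direction, 29.4% higher and 30.5% lower, and 64.3% had groups that did not overlap, so the share called among these genes is near the background. Their median log2 fold change was 0.00275, against 0.0043 over all genes tested, and their median size was 0.19, against 0.30. The RNA is from whole cultures, in which fewer cells of a type and less RNA per cell cannot be told apart. All 7 genes passed the filter on low counts, with 409 to 9379 counts in a library.

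**Figure D1:**
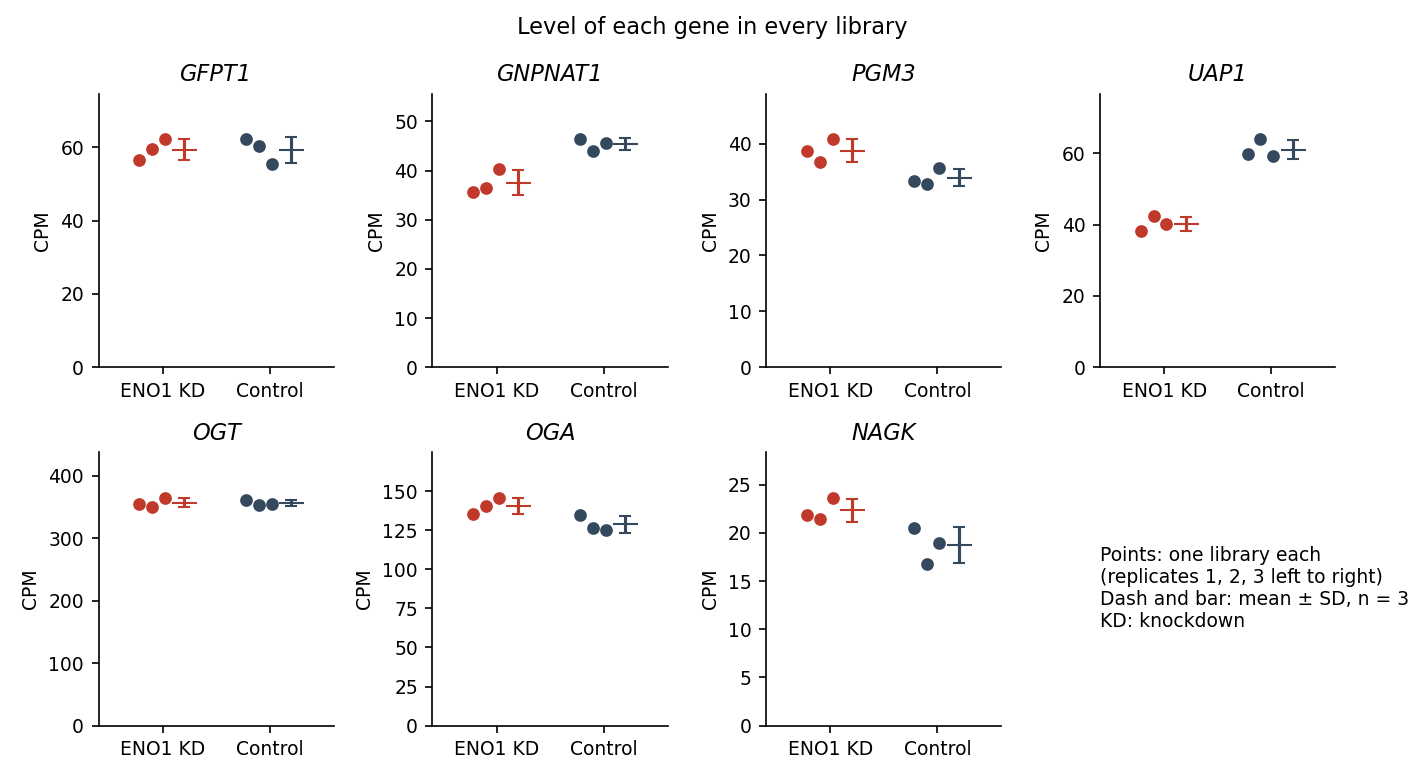
Level of each of the 7 genes in CPM, on axes that start at 0, with 1 point for each library and the mean ± SD of each group (n = 3), ENO1 knockdown on the left and control on the right. The groups of UAP1, GNPNAT1, PGM3, OGA and NAGK do not overlap, while those of GFPT1 and OGT do.

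GFPT1 (ENSG00000198380, GRCh38 chromosome 2, 69319769 to 69387254, minus strand) sets the entry into the pathway. It had 56.5, 59.4 and 62.3 CPM in the knockdown libraries, against 62.3, 60.3 and 55.4 CPM in the control libraries. The ranges of the groups covered nearly the same values. Its mean was 59.4 ± 2.89 CPM in the knockdown cells and 59.3 ± 3.57 CPM in the control cells (SD, n = 3 each). The 95% interval of the difference ran from a level 7.1% lower to one 7.78% higher in the knockdown cells (edgeR quasi-likelihood adjusted p = 0.989). The sign of so small a difference depended on the setting.

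GNPNAT1 (ENSG00000100522, GRCh38 chromosome 14, 52775194 to 52791668, minus strand), the glucosamine-phosphate acetyltransferase, was at 35.7, 36.5 and 40.4 CPM in the knockdown libraries, against 46.4, 44.0 and 45.5 CPM in the control libraries. Every knockdown library lay below every control library, and knockdown replicate 3 was the closest to the controls. Its log2 fold change was -0.27 (approximate SE 0.0562; edgeR quasi-likelihood adjusted p = 1.43e-04). Its exons share 1426 bases (35.6% of their length) with AL139317.3, an antisense gene on the opposite strand that had no row in the table used here. The strand setting of the counting is not given in the sources used here, so reads from this stretch cannot be assigned to either gene.

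PGM3 (ENSG00000013375, GRCh38 chromosome 6, 83161150 to 83193936, minus strand), the phosphoacetylglucosamine mutase, was at 38.6, 36.8 and 40.8 CPM in the knockdown libraries, against 33.3, 32.8 and 35.7 CPM in the control libraries. The lowest knockdown library was above the highest control library by a small margin. Its log2 fold change was 0.19 (approximate SE 0.0587; edgeR quasi-likelihood adjusted p = 0.0065). The call was lost when the 2 libraries that stood apart were both set aside (edgeR adjusted p = 0.0866). DOP1A, a gene on the opposite strand, shares 1087 exonic bases (14.8%) with PGM3 and also rose, to 20.9 ± 0.737 CPM in the knockdown cells, against 14.98 ± 2.15 CPM in the control cells (SD, n = 3 each; log2 fold change 0.48). The part of shared reads in the difference in PGM3 was not tested.

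UAP1 (ENSG00000117143, GRCh38 chromosome 1, 162561506 to 162599842, plus strand), the UDP-GlcNAc pyrophosphorylase, had the largest change of the 7 genes. Its counts were 825, 932 and 817 in the knockdown libraries, against 1553, 1561 and 1443 in the control libraries. In CPM these were 38.3, 42.3 and 40.2 in the knockdown libraries, against 59.9, 64.0 and 59.2 in the control libraries. The groups were separated by a gap much wider than the spread within either. Its log2 fold change was -0.60 (approximate SE 0.0528, 95% interval -0.71 to -0.49; edgeR quasi-likelihood adjusted p = 1.42e-10). Of all genes tested, 23.3% had a larger change in either direction. UAP1L1, its paralog, was in the list of neighbouring genes and also fell, to 22.8 ± 1.5 CPM in the knockdown cells, against 30.8 ± 1.29 CPM in the control cells (SD, n = 3 each). None of the stretches of 50 bases in UAP1 transcripts occurred unchanged in transcripts of another gene (0% shared). Inexact matches and other lengths were not searched, so whether reads of UAP1L1 were counted for UAP1 was not tested.

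OGT (ENSG00000147162, GRCh38 chromosome X, 71533083 to 71575897, plus strand), the only enzyme that writes O-GlcNAc on nuclear and cytosolic proteins, had 356, 350 and 365 CPM in the knockdown libraries, against 362, 353 and 355 CPM in the control libraries. The groups overlapped. The means were 357 ± 7.62 CPM in the knockdown cells and 356 ± 4.71 CPM in the control cells (SD, n = 3 each). This was the tightest estimate of the 7 genes, with a 95% interval from 3.92% lower to 4.48% higher in the knockdown cells (edgeR quasi-likelihood adjusted p = 0.943). With 7427 to 9379 counts in a library, OGT was also the most deeply counted of them. The counts are per gene, so transcripts with a detained intron and spliced mRNA of OGT cannot be told apart.

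OGA (ENSG00000198408, GRCh38 chromosome 10, 101784443 to 101818465, minus strand), the enzyme that removes O-GlcNAc, was at 135.3, 140.4 and 145.8 CPM in the knockdown libraries, against 134.8, 126.3 and 125.0 CPM in the control libraries. The groups did not overlap, but the lowest knockdown library and the highest control library were almost equal. Its log2 fold change was 0.13 (approximate SE 0.0388; edgeR quasi-likelihood adjusted p = 0.00673). The call was narrowly lost without control replicate 3 (edgeR adjusted p = 0.0523) and without both libraries that stood apart (edgeR adjusted p = 0.0525).

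NAGK (ENSG00000124357, GRCh38 chromosome 2, 71064344 to 71079805, plus strand), the kinase of GlcNAc salvage, had 21.9, 21.4 and 23.7 CPM in the knockdown libraries, against 20.5, 16.8 and 19.0 CPM in the control libraries. Control replicate 2 was the lowest of the 6 libraries. Its log2 fold change was 0.25 (approximate SE 0.0798; edgeR quasi-likelihood adjusted p = 0.00866). Without control replicate 2 the log2 fold change was 0.18 and the call was lost (edgeR adjusted p = 0.0801), and without both libraries that stood apart it was 0.13 (edgeR adjusted p = 0.20). NAGK had the fewest counts of the 7 genes, 409 to 531 in a library, and the widest interval, from 6.12 to 33.2% higher in the knockdown cells.

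**Figure D2:**
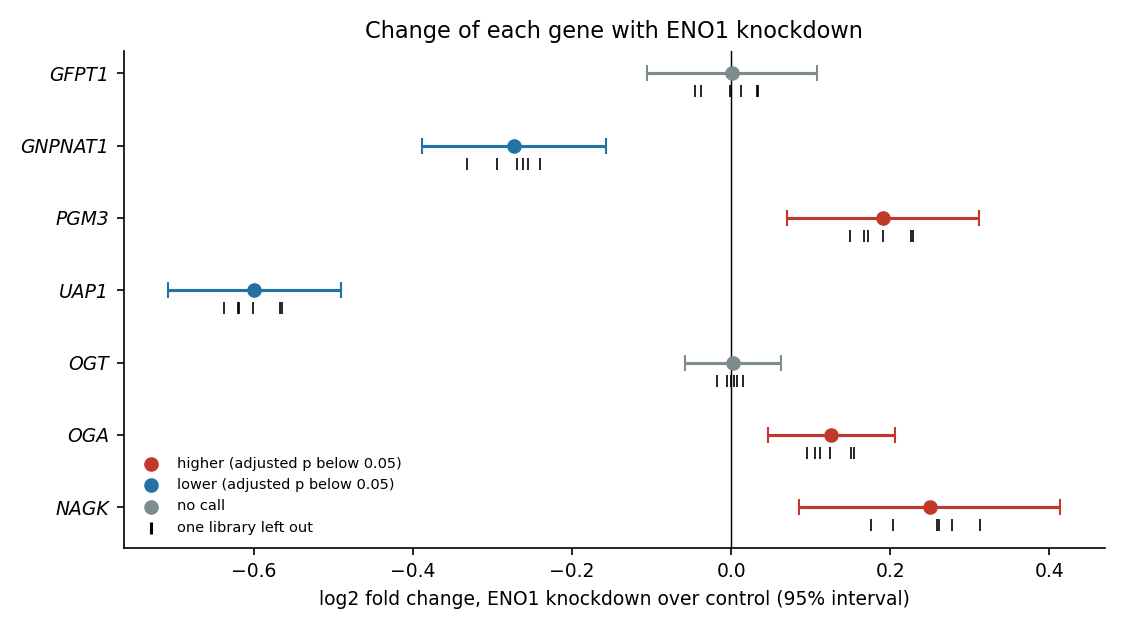
Log2 fold change of each gene, ENO1 knockdown over control, with its 95% interval from the edgeR fit, in the order of the pathway from top to bottom. Black ticks are the same value with 1 library left out. UAP1 at -0.60 and GNPNAT1 at -0.27 lie left of 0, PGM3, OGA and NAGK lie right of it, and the ticks of GFPT1 and OGT fall on both sides.

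Read along the pathway, the de novo steps did not move together: the values were 0.00093 for GFPT1, -0.27 for GNPNAT1, 0.19 for PGM3 and -0.60 for UAP1 on the log2 fold change scale. Ratios of counts within a library, in which library size cancels, restate this spread between steps from the same counts. The ratio of UAP1 to GFPT1 was 0.679, 0.711 and 0.645 in the knockdown libraries, against 0.962, 1.06 and 1.07 in the control libraries. The ratio of UAP1 to PGM3 was 0.993, 1.15 and 0.984 in the knockdown libraries, against 1.80, 1.95 and 1.66 in the control libraries. Both ratios were chosen after the values were seen and are given without a test.

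At the level of RNA, the balance of writer to eraser was slightly lower in the knockdown libraries, and enzyme activity was not measured. The ratio of OGT to OGA counts was 2.63, 2.49 and 2.50 in the knockdown libraries, against 2.68, 2.79 and 2.84 in the control libraries, and the groups did not overlap. On the log2 scale the ratio averaged 1.35 ± 0.0423 in the knockdown cells and 1.47 ± 0.0415 in the control cells (SD, n = 3 each), a difference of -0.12. The ratio of NAGK to GFPT1, salvage against entry, was 0.388, 0.36 and 0.38 in the knockdown libraries, against 0.329, 0.278 and 0.343 in the control libraries, a difference of 0.25 on the log2 scale, or 0.16 without control replicate 2. In an exact two-sided permutation test each of these 2 ratios gave p = 0.1, which is the smallest p that 3 libraries against 3 can give. The number of reads per molecule differs between transcripts of different length, so the height of a ratio carries no meaning beyond its comparison between groups.

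**Figure D3:**
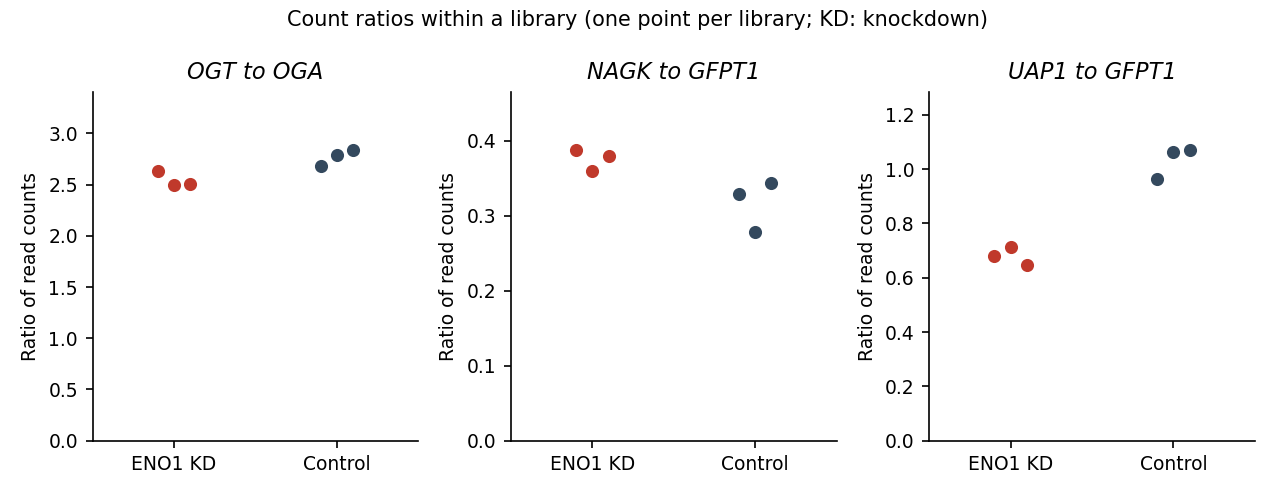
Ratio of read counts within each library for OGT to OGA, NAGK to GFPT1 and UAP1 to GFPT1, on axes that start at 0, 1 point for each library, ENO1 knockdown left and control right. In each panel the groups do not overlap, and the gap is widest for UAP1 to GFPT1, at most 0.711 in knockdown libraries and at least 0.962 in control libraries.

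Levels of different genes were compared as CPM per kilobase of the principal transcript in GENCODE release 29. On this scale OGT was the highest of the 7 genes, at 65.4 ± 1.4 in the knockdown cells and 65.3 ± 0.863 in the control cells (SD, n = 3 each). UAP1 was at 16.1 to 17.8 CPM per kilobase in the knockdown libraries, below OGA at 26.2 to 28.3 and NAGK at 18.6 to 20.5. In the control libraries UAP1 was at 24.9 to 26.9 CPM per kilobase, which overlapped OGA at 24.3 to 26.2 and lay above NAGK at 14.5 to 17.7. GNPNAT1 came next in both groups, at 9.72 ± 0.647 in the knockdown cells and 11.7 ± 0.309 in the control cells (SD, n = 3 each). GFPT1 and PGM3 were the lowest. Their ranges overlapped in the knockdown libraries, at 6.54 to 7.21 for GFPT1 and 6.02 to 6.68 for PGM3, and were apart in the control libraries, at 6.41 to 7.21 for GFPT1 and 5.36 to 5.84 for PGM3. The place of NAGK rests on the length used: its principal transcript is 1154 bases and the union of its annotated exons 8894 bases. Per kilobase of that union it was the lowest of the 7 genes, at 2.41 to 2.66 in the knockdown libraries and 1.89 to 2.30 in the control libraries. The overlap of GFPT1 and PGM3 in the knockdown libraries rests on the length used as well. Per kilobase of the union of their own exons they were apart there, at 6.37 to 7.02 for GFPT1 and 5.01 to 5.56 for PGM3.

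**Figure D4:**
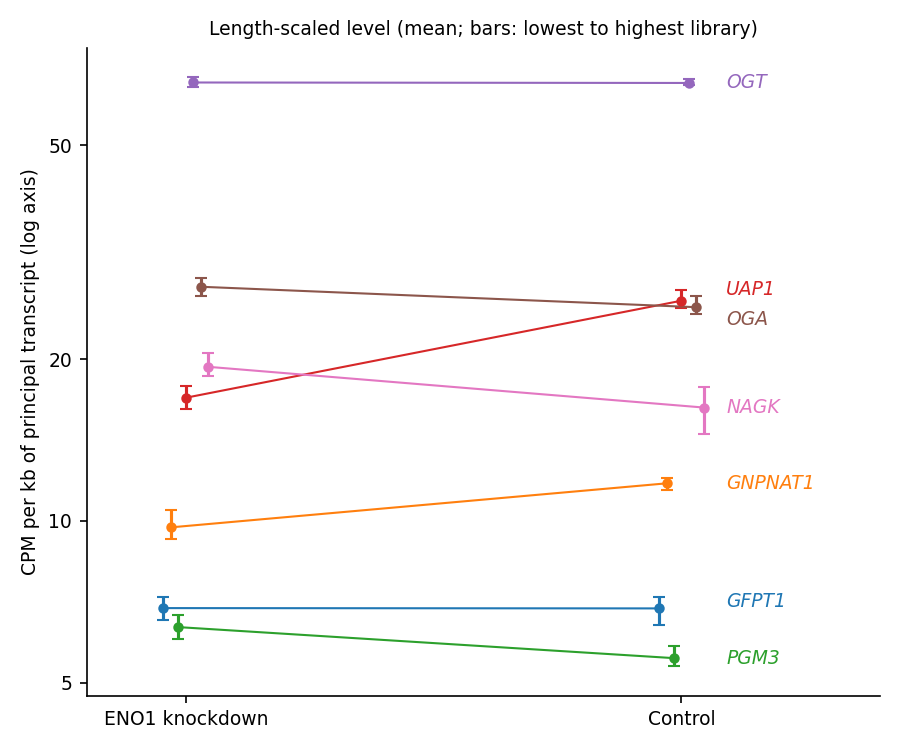
Level of each gene in CPM per kilobase of the principal transcript, on a log axis, as the mean of 3 libraries with bars from the lowest to the highest library, ENO1 knockdown left and control right. UAP1 changes place: it lies below OGA and NAGK in the knockdown cells and beside OGA in the control cells.

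The sequences upstream of 4 of these genes are shown because UAP1 and GNPNAT1 fell while GFPT1, at the head of the same pathway, and OGT did not pass the test. They are from RefSeq (GRCh38.p14), 5′ to 3′ on the strand of the gene, from the most upstream window of each gene, cut before the first start annotated by RefSeq or GENCODE. Capitals mark GGGCGG, or CCGCCC where it lies on the other strand, the GC box bound by SP1 and related factors. UAP1 is chr1:162561281-162561505 on the plus strand, GNPNAT1 is chr14:52791669-52791857 on the minus strand, GFPT1 is chr2:69387255-69387477 on the minus strand and OGT is chrX:71532854-71533082 on the plus strand.
UAP1: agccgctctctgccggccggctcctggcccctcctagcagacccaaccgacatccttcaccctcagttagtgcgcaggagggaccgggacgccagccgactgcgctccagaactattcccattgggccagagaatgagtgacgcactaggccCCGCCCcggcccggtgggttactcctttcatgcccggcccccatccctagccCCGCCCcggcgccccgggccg
GNPNAT1: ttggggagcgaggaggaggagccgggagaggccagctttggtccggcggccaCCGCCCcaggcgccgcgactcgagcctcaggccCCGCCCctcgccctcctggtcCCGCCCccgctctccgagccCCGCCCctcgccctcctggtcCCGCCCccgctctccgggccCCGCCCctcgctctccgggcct
GFPT1: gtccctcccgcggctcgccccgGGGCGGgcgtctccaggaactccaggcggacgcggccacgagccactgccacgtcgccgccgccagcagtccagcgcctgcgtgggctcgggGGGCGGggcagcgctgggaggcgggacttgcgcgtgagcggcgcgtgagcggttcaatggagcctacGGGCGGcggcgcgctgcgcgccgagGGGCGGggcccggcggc
OGT: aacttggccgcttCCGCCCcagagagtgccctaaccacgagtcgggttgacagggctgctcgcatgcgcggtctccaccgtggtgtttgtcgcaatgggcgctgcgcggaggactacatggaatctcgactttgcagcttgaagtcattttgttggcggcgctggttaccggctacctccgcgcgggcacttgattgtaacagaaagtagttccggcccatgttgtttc

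All 7 genes were matched in the promoter table, by 11 windows of 300 bases (250 before and 50 after a RefSeq start). GC boxes were found in 10 of the 11 windows, and 44.95% of all 35116 windows in the table hold one. Neighbouring windows of UAP1 overlap, so the same GC box is counted in more than 1 of them and the windows are not independent. The shown sequences hold 2 in UAP1, 6 in GNPNAT1, 4 in GFPT1 and 1 in OGT, as GGGCGG in GFPT1 and as CCGCCC in the others. The E-box CACGTG, the amino acid response motif TGATGNAA, the unfolded protein response motif TGACGTGG and the ER stress response element were searched on both strands, and 0 of the 11 windows held any of them. Of all windows, 7.26, 3.62, 0.729 and 0.0769% hold them in that order. The E-box and the unfolded protein response motif share the letters ACGTG. A match or its absence says only which letters stand in these windows.

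Genes around the pathway were described by 8 lists. The list medians are set beside a median of 0.0043 over all genes tested, and no list was tested as a set. In all, 68 of 73 listed genes passed the filter and were tested, of which 11 were higher, 30 lower and 27 without a call. Over all genes tested 59.9% were called, 29.4% higher and 30.5% lower, and the counts of the single lists are read against these shares.

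Genes that feed the pathway mostly fell. Of 9 tested, 6 fell and 3 rose, and the median was -0.48 on the log2 fold change scale. Hexokinase HK2, which makes glucose 6-phosphate, was at 101 ± 2.89 CPM in the knockdown cells and 178 ± 4.24 CPM in the control cells (SD, n = 3 each). The isomerase GPI, which makes the fructose 6-phosphate that GFPT1 uses, and the glutamine synthetase GLUL had log2 fold changes of -0.48 and -0.52 (edgeR adjusted p = 1.03e-14 and 1.61e-14).

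Of 7 further genes of salvage and breakdown of GlcNAc, NAGK not among them, 3 were lower and 0 higher. GNPDA1, the deaminase that returns glucosamine 6-phosphate to glycolysis, was at 40.4 ± 0.867 CPM in the knockdown cells and 54.1 ± 0.987 CPM in the control cells (SD, n = 3 each). The lysosomal hydrolase NAGLU, which releases GlcNAc from heparan sulphate, had a log2 fold change of -0.59 (edgeR adjusted p = 1.95e-08).

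Among transferases that use UDP-GlcNAc, 7 of 22 tested genes were higher and 9 lower, with a median of -0.14. GNPTAB, which starts the mannose 6-phosphate tag of lysosomal enzymes, had the largest change of all the genes in the lists, at 102 ± 3.11 CPM in the knockdown cells and 33.0 ± 2.53 CPM in the control cells (SD, n = 3 each; log2 fold change 1.62, edgeR adjusted p = 5.23e-20). MGAT4B, which branches N-glycans, and B3GNT2, which extends poly-lactosamine chains, had log2 fold changes of -0.61 and -0.66 (edgeR adjusted p = 6.44e-13 and 2.31e-11).

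Genes of UDP-sugar transport and interconversion had 2 of 6 tested members lower and 0 higher, with a median of -0.11. SLC35B4, a Golgi carrier of UDP-xylose and UDP-GlcNAc, was at 35.2 ± 1.13 CPM in the knockdown cells and 53.0 ± 1.95 CPM in the control cells (SD, n = 3 each), beside UAP1L1 at a log2 fold change of -0.43. SLC35A3, another UDP-GlcNAc carrier in the list, had a log2 fold change of -0.18 and did not pass (edgeR adjusted p = 0.071). Of the 5 genes that make and carry CMP-sialic acid from UDP-GlcNAc, 1 was lower and 0 higher. That one was GNE, the first enzyme, with a log2 fold change of -0.23 (edgeR adjusted p = 0.00235). CMAS and NANP had log2 fold changes of -0.09 and -0.16 and did not pass (edgeR adjusted p = 0.101 and 0.168).

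Of 10 partners and substrates of OGT, 4 were lower and 0 higher, with a median of -0.07, where 59.9% of all genes tested were called. The nucleoporin NUP62, the deubiquitinase BAP1 and the mitochondrial transport adaptor TRAK2 had log2 fold changes of -0.33, -0.29 and -0.44 (edgeR adjusted p = 1.42e-08, 1.01e-07 and 1.94e-07). Of 5 genes that bear on splicing of the detained intron of OGT, SFSWAP fell and the kinase CLK4 rose, by log2 fold changes of -0.33 and 0.33, while CLK2 had -0.08 and did not pass (edgeR adjusted p = 0.101). All 4 stress factors known to act on hexosamine genes were lower, with a median of -0.33. ATF4, the factor of the amino acid response, was at 301 ± 0.672 CPM in the knockdown cells and 416 ± 3.18 CPM in the control cells (SD, n = 3 each). ERN1, the kinase and RNase that splices XBP1 mRNA, and XBP1, known as a direct activator of GFPT1, had log2 fold changes of -0.92 and -0.11 (edgeR adjusted p = 2.49e-11 and 0.00167). Gene counts do not separate spliced from unspliced XBP1.

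**Figure D5:**
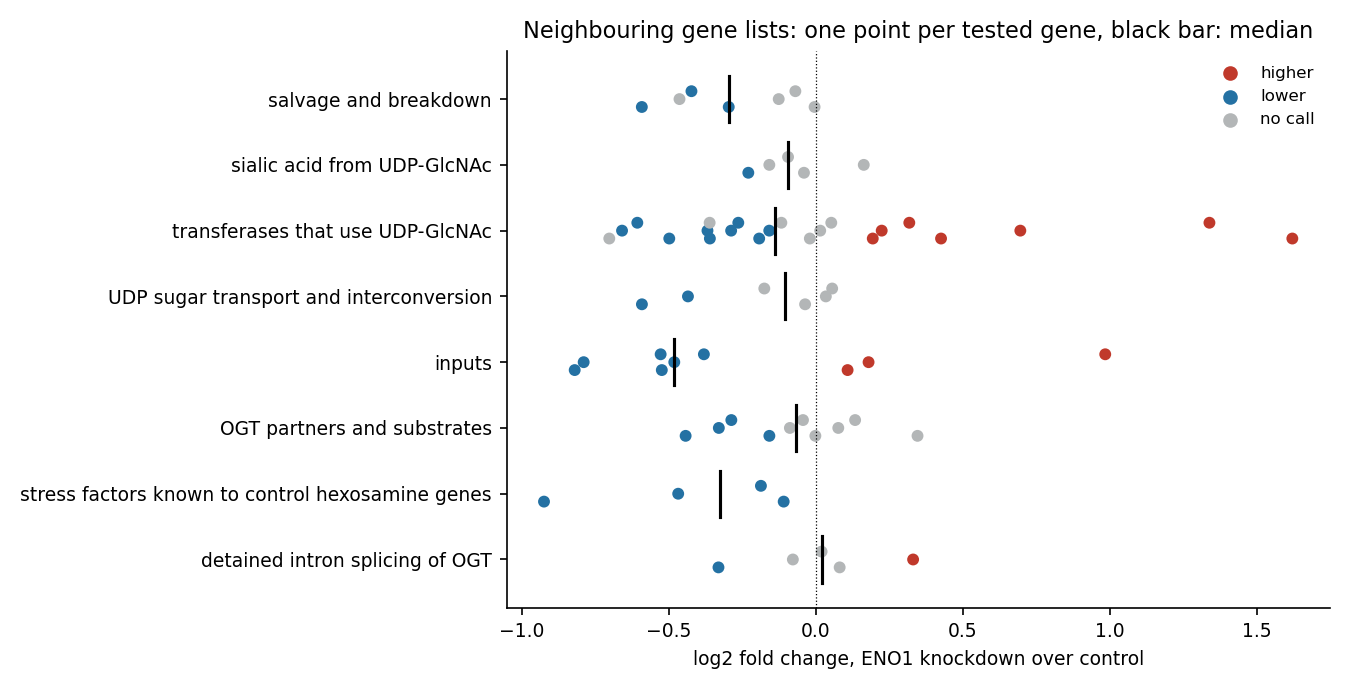
Log2 fold change, ENO1 knockdown over control, of each tested gene in the 8 neighbouring lists, coloured by its call at an edgeR adjusted p below 0.05, with the list median as a black bar. The median of the inputs, -0.48, lies farthest from 0, and GNPTAB at 1.62 is the farthest single point.

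Profiles most like those of GFPT1, OGT and OGA were sought among 9020 other tested genes with a mean of at least 10 CPM, as the smallest Euclidean distance of centred log2 CPM over the 6 libraries. For GFPT1 these were TRAF3IP1, EIF2AK4 and CCDC18-AS1, at distances of 0.0643, 0.0686 and 0.07. For OGT they were SYAP1, LYRM2 and ATP5F1A, at 0.0206, 0.0248 and 0.028. For OGA they were DNPEP, RNGTT and IDH3A, at 0.0334, 0.0393 and 0.0409. The log2 fold changes of these 9 genes ran from -0.0043 to 0.14. With 6 libraries in 2 groups, such a list mainly ranks genes by how closely their group difference matches.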

How the data were processed

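Whole-number read counts per Ensembl gene, not normalized, were deposited by the authors in 1 table with 1 column for each library, per the file headers. HISAT2 2.0.5 and hg38 are named in the submitters' processing notes. For the read counter, the annotation and strandedness nothing is given in the sources used here. Columns were assigned to samples by the group and replicate number in their names. Of 23227 genes, 23211 were given a symbol.

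The test was that of edgeR 4.0.16 under R 4.3.3: filterByExpr, TMM factors, the robust quasi-likelihood fit and test, two-sided, with Benjamini-Hochberg adjustment over all 14635 genes that passed the filter and a threshold of 0.05. These genes held at least 99.89% of the counts of each library. The common biological coefficient of variation was 0.0392. Standard errors are approximate, being the absolute log2 fold change over the root of the F statistic. Positions, exon overlap and lengths came from GENCODE release 29 on GRCh38. Of the 50-base stretches of each gene's transcripts, at most 1.89% (NAGK) occurred in other genes. Ratios were compared by exact permutation over libraries (SciPy 1.17.1). Libraries of 1 group differed by more than sampling noise.

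The genes, lists, motifs and tests were chosen with earlier results of these data known. For each list the 3 tested genes with the smallest adjusted p are named, except that 1 item is not reported here. The alternatives were other scalings and filters, DESeq2 1.42.0, limma-voom (limma 3.58.1), a replicate block, thinning, a threshold of 0.01 and each library left out. Setting aside both libraries that stood apart was added after seeing the data. On simulated counts for knockdown over control, 24 of 50 genes changed 1.2-fold and 39 of 50 changed 1.5-fold were recovered among 14409 tested genes. Of 14214 tested genes that were left unchanged, 9 were called. Far fewer genes were changed in this simulation than the 59.9% called in the data. Its recovery rates therefore need not hold for the data, where the adjustment for many tests acts differently.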

Additional observations from a re-analysis of the deposited data

How the results depend on the processing

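The falls of UAP1 and GNPNAT1 kept their direction and their call under all 17 alternatives run for each gene, with log2 fold changes of -0.64 to -0.55 for UAP1 and -0.35 to -0.22 for GNPNAT1. The number of these genes that fell was 2 throughout. The number that rose was 3 under the other alternatives, 2 to 3 with 1 library left out, and 0 when control replicate 2 and knockdown replicate 3 were both set aside. In that fit edgeR gave 3 of the 7 genes an unadjusted p below 0.05, and PGM3, OGA and NAGK had log2 fold changes of 0.13, 0.08 and 0.13. The cause was not tested, and the fit has fewer libraries. Besides that fit, OGA lost its call without control replicate 3 and NAGK without control replicate 2. GFPT1 and OGT never passed, and their signs were not stable. GFPT1 ran from -0.0459 to 0.0341 with 1 library left out and OGT from -0.0175 to 0.0152. Without a filter GFPT1 and OGT were at -0.0224 and -0.0206, and without both libraries that stood apart at -0.0226 and -0.0216. OGT was at -0.000865 after thinning to the smallest library. Over all genes the count of higher calls ran from 3543 to 4900 and of lower calls from 3608 to 4768, within 1.5 times of 4309 and 4458. The median of all genes moved by at most 0.07.

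Libraries with the same replicate number did not deviate together (r = -0.00033, 0.0025 and -0.0456 over genes), so the numbers were not taken to pair them. With the replicate block 4165 genes were higher and 4325 lower, again 3 and 2 of these genes, and the log2 ratio of OGT to OGA differed by -0.12 and that of NAGK to GFPT1 by 0.25 (exact sign-flip p = 0.25, the smallest 3 pairs can give). With 1 library left out the OGT to OGA difference ran from -0.15 to -0.11 and the NAGK to GFPT1 difference from 0.16 to 0.31. The planned ratio of GFPT1 to GFPT2 was not run, since GFPT2 was not analysed. NAGK kept its call after thinning to the smallest library (0.25).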
